A study of Mus musculus with 21 samples.

Results

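The 4 Hox gene clusters of the mouse were examined as 4 windows on the mm9 build: HoxA at 52100000 to 52230000 on chromosome 6, HoxB at 96050000 to 96240000 on chromosome 11, HoxC at 102740000 to 102870000 on chromosome 15 and HoxD at 74490000 to 74610000 on chromosome 2. Every peak and domain of 8 deposited lists that overlapped a window by at least 1 bp was taken, which gave 16 of 42669 listed features. The windows are set by position alone and measure 570 kb in all. They stand for 38 Hox genes: 10 of HoxA (Hoxa2, Hoxa3, Hoxa4, Hoxa5, Hoxa6, Hoxa7, Hoxa9, Hoxa10, Hoxa11, Hoxa13), 10 of HoxB (Hoxb1, Hoxb2, Hoxb3, Hoxb4, Hoxb5, Hoxb6, Hoxb7, Hoxb8, Hoxb9, Hoxb13), 9 of HoxC (Hoxc4, Hoxc5, Hoxc6, Hoxc8, Hoxc9, Hoxc10, Hoxc11, Hoxc12, Hoxc13) and 9 of HoxD (Hoxd1, Hoxd3, Hoxd4, Hoxd8, Hoxd9, Hoxd10, Hoxd11, Hoxd12, Hoxd13). In the RefSeq gene order of GRCm38, the genes numbered 13 stand at the low-coordinate end of HoxB, HoxC and HoxD and at the high-coordinate end of HoxA. No mm9 gene annotation was used here, so features were placed within a cluster and not assigned to a single Hox gene.

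The series used chromatin immunoprecipitation and sequencing (ChIP-seq) in J1 cells, a mouse embryonic stem (ES) line grown with leukemia inhibitory factor, and comprised 21 samples in 12 groups. Tagged Fbxl19 was pulled down with streptavidin beads from 2 samples of a clone that carried flag-biotin tagged Fbxl19 overexpressed more than 5 fold (OE-high) and from 2 samples of a clone that carried it at a sub-endogenous level (OE-low). Rnf20 was pulled down in the same way from 1 sample. The OE-low and Rnf20 cells are labelled as containing BirA, a biotin ligase, and the OE-high cells as J1 alone. H2Bub1 was precipitated with an antibody from ES cells (3 samples), ES cells with Fbxl19 knocked down (2), OE-high ES cells (3), cells differentiated for 4 days (2) and knockdown cells differentiated for 4 days (2). Input DNA made up the remaining 4 samples. The labels do not describe the methods of knockdown or differentiation, and each overexpression level rests on a single clone. Each list but that of Rnf20 combines the samples of its group, so there is no spread between replicates, no test between conditions was possible, and presence or absence in a list means passing or missing the authors' threshold. The labelled cell type was not checked, because these lists hold no expression values.

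Hox genes encode homeodomain transcription factors that set position along the body axis, and the order of the genes in a cluster follows the order of their activity along that axis. In ES cells the clusters are known as classical Polycomb domains, rich in CpG islands and largely silent. Fbxl19 has a CXXC zinc finger, which binds unmethylated CpG, and an F-box. Rnf20 is an E3 ligase that attaches ubiquitin to histone H2B, and H2Bub1, the product, is known to accompany transcription through gene bodies. The series title links Fbxl19, Rnf20, CpG islands and H2Bub1.

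CpG content of Hox promoters was read from RefSeq promoter windows of GRCm38, which span 250 bases before to 50 after each gene start. The table matched 22 of the 38 genes: 9 of 10 in HoxA, 9 of 9 in HoxD, 3 of 10 in HoxB and 1 of 9 in HoxC, so a summary was made for HoxA and HoxD only and is void for HoxB and HoxC. The 10 HoxA promoters held 4 to 45 CG dinucleotides with a median of 17.5, and the 10 HoxD promoters 4 to 37 with a median of 20. Over all 32841 promoters of the table the median was 7, and 48.7% lay above it, as did 9 of the 10 HoxA and 7 of the 10 HoxD promoters. At least 1 CG was present in 94.6% of all promoters. The promoters with the most and the fewest CG in these clusters are shown because CpG is the sequence that a CXXC domain reads. Each CG is in capitals, and the sequences run 5′ to 3′ on the strand of the gene. Hoxa13 (45 CG, chr6:52260831-52261130, minus strand) and Hoxa9 (4 CG, chr6:52227321-52227620, minus strand) are the extremes of HoxA. Hoxd13 (37 CG, chr2:74667975-74668274, plus strand) and the first of the 2 listed Hoxd11 promoters (4 CG, chr2:74679308-74679607, plus strand, tied with Hoxd4) are those of HoxD. These coordinates are of GRCm38 and cannot be set beside the mm9 positions of the peaks.
Hoxa13: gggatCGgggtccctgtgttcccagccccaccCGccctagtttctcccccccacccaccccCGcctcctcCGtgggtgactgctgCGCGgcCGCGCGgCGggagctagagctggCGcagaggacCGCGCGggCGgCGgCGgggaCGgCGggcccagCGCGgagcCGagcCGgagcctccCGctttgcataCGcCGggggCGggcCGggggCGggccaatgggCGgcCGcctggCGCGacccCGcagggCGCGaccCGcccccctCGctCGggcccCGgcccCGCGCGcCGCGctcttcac
Hoxa9: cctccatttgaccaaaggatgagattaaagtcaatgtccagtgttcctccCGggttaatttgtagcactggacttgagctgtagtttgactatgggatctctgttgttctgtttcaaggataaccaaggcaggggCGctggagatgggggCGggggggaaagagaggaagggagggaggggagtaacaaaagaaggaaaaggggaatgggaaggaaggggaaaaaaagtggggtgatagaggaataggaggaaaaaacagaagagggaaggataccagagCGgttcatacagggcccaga
Hoxd13: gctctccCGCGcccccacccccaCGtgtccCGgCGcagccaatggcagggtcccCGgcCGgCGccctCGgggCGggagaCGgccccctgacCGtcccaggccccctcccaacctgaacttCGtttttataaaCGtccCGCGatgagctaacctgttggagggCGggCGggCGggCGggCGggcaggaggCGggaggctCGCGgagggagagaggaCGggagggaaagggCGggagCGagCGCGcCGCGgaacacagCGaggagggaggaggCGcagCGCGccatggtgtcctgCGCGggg
Hoxd11: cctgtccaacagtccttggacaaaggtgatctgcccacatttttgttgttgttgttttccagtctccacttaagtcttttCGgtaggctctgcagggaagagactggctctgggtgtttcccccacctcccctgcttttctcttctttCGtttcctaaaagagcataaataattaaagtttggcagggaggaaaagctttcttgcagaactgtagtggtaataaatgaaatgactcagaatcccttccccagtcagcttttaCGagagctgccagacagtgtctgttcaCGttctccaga
In these sequences CG dinucleotides are frequent in the Hoxa13 and Hoxd13 windows and sparse in those of Hoxa9 and of the Hoxd11 promoter shown. Their spacing was not measured. The second listed Hoxd11 promoter, not shown, held 25 CG, and 81.6% of all promoters held fewer. A count of CG says nothing on its own about binding, and no peak was placed on any of these promoters.

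**Figure D1:**
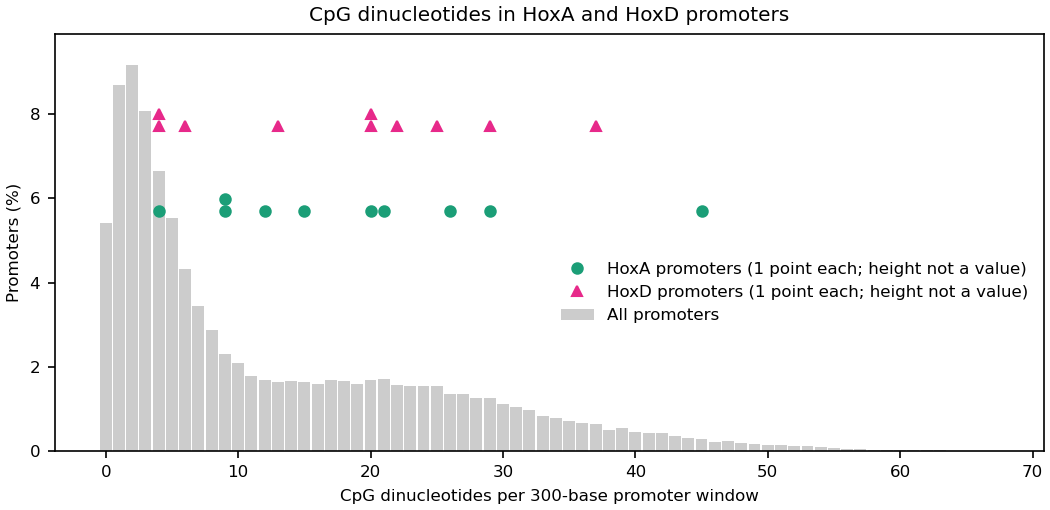
CpG dinucleotides per 300-base promoter window (x axis) as a share of all promoters in percent (grey bars, y axis), with each HoxA promoter (circles) and HoxD promoter (triangles) as a point whose height has no meaning. HoxA promoters span 4 to 45 and HoxD promoters 4 to 37, against a median of 7 over all promoters.

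Inside the windows, the 16 features formed 10 separate sites, and 8 of these sites were a single feature of a single list. HoxB held 10 features at 4 sites, HoxA 3 features at 3 sites, HoxC 2 at 2 sites and HoxD 1. HoxB was the cluster with features of all 3 proteins or marks, and both sites with more than a single feature lay there. By list, the 16 were 7 OE-high Fbxl19 peaks, 2 OE-low Fbxl19 peaks, 4 Rnf20 peaks and 3 H2Bub1 domains.

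**Figure D2:**
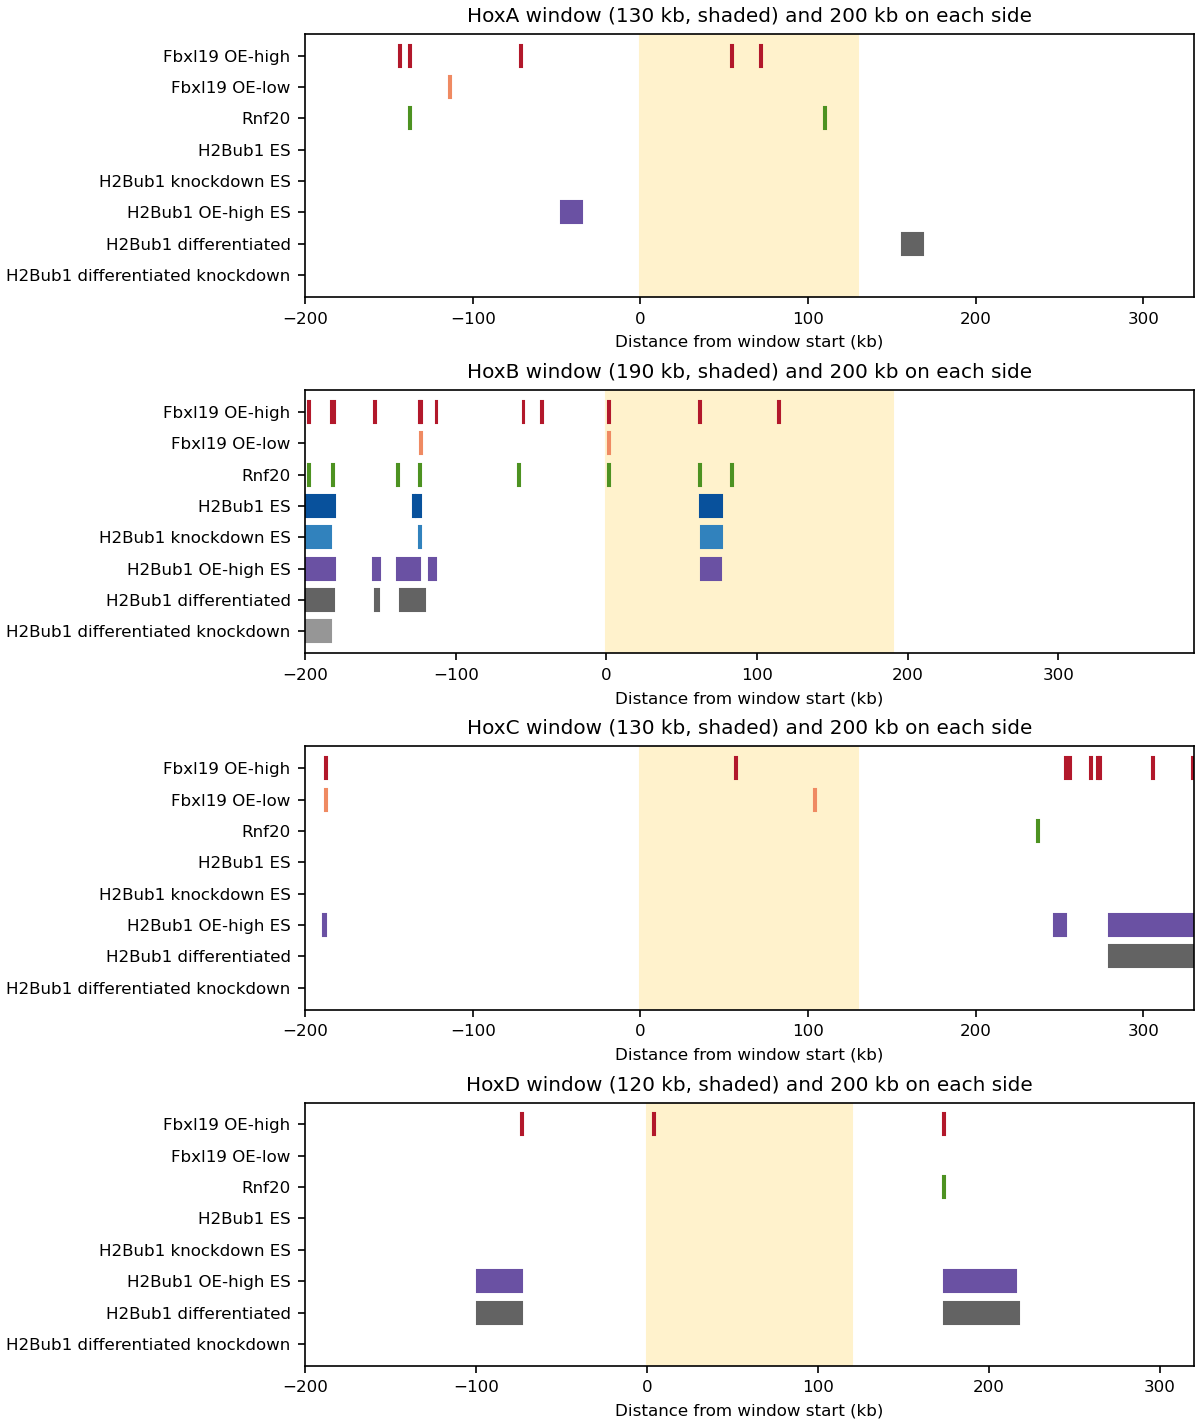
Map of the 4 Hox windows (shaded) with 200 kb on each side, with distance from the window start in kb on the x axis and the 8 lists as rows. Each bar is a listed peak or domain, drawn at least 1.2 kb wide, and the only H2Bub1 bars inside a shaded window are the 3 of HoxB, in undifferentiated cells.

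Fbxl19 in the OE-high clone was listed in every window, with 2 peaks in HoxA, 3 in HoxB, 1 in HoxC and 1 in HoxD. The HoxD peak lay 3.48 kb and 1 of the HoxB peaks 1.32 kb inside the window edge. With windows narrowed by 5 kb, 5 peaks were left and HoxD had none. The 7 peaks amount to 12.3 per Mb (exact 95% Poisson interval 4.94 to 25.3, counting error only). The 500 kb on each side of the windows held 49 peaks, or 12.2 per Mb, and the whole span of the lists 5.18 per Mb. The interval of the windows took in the flank value and, near its lower end, the genome-wide value. Among consecutive bins of the same length as each window, 15.4% held at least 2 OE-high peaks (HoxA), 13.4% at least 3 (HoxB), 29.5% at least 1 (HoxC) and 28.1% at least 1 (HoxD).

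HoxB and HoxC each had 21 OE-high peaks in their flanks, while HoxA had 5 and HoxD 2. Cluster by cluster, the window held 15.4 against 5 per Mb in the flanks at HoxA and 15.8 against 21 at HoxB. The values were 7.69 against 21 at HoxC and 8.33 against 2 at HoxD. The interval of each window took in its flank value. The nearest OE-high peaks outside HoxD lay 72.6 kb before and 53.7 kb after its window. The first OE-high peak after the HoxB window was 335 kb away and that after the HoxA window 360 kb.

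**Figure D3:**
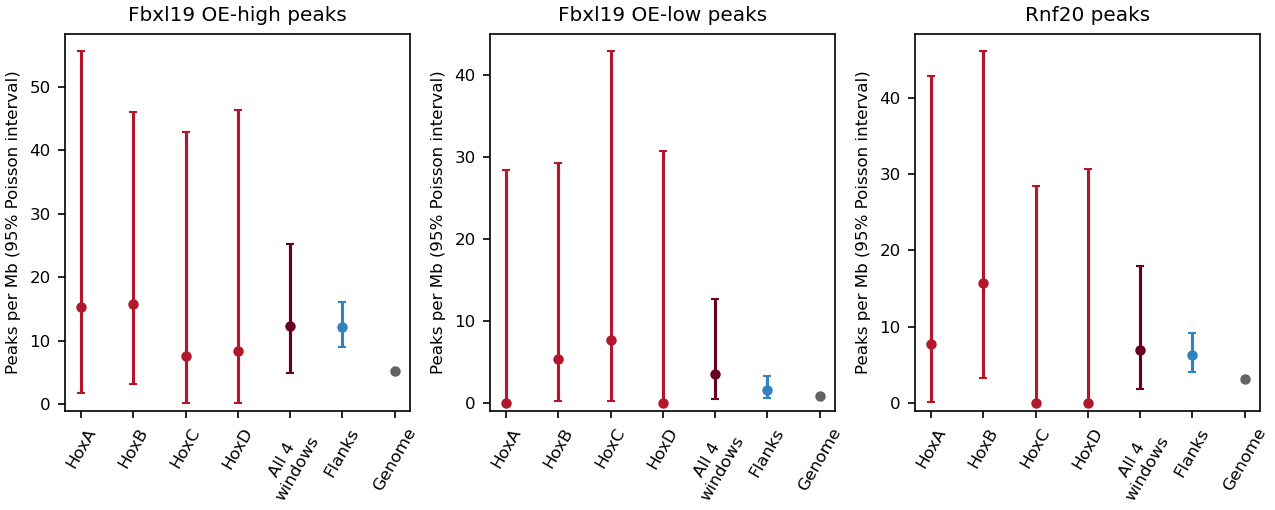
Peaks per Mb (y axis) of the OE-high Fbxl19, OE-low Fbxl19 and Rnf20 lists in each Hox window, in all 4 windows, in the flanks of 500 kb on each side and over the whole span, with exact 95% Poisson intervals as bars. For OE-high Fbxl19 the pooled values of the 4 windows (12.3) and of the flanks (12.2) stood close together. The intervals of the single windows were wide.

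The strongest Fbxl19 peak of the windows lay at the start of the HoxB window, at 96051318 to 96051949 on chromosome 11. The authors' first score was 23.2, rank 213 of 13669 in the OE-high list, so that 98.4% of its peaks scored lower. It was also the only OE-high peak of the windows to overlap both an OE-low peak (96051587 to 96051844, score 7.98, rank 985 of 2213) and an Rnf20 peak (96051524 to 96051914, score 93.4, rank 2277 of 8606). Genome-wide, 5.00% of OE-high peaks overlapped both. Hoxb13 is the HoxB gene at that end of the cluster, but the peak lay 1.32 kb from the start of a window whose ends were set by hand, and was not assigned to a gene.

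The other OE-high peaks of HoxB were of middling score. The peak at 96112173 to 96112631 (score 11.4, 60.2% of the list lower) overlapped an Rnf20 peak at 96112119 to 96112607 (score 59.5, 35.8% lower). A peak at 96164414 to 96164712 (score 10.7, 51.5% lower) overlapped no feature of another list. In HoxA the peaks lay at 52154470 to 52154811 (score 11.0, 54.8% lower) and 52171623 to 52172032 (score 7.03, 2.59% lower), the latter among the lowest of the list. HoxC had a peak at 102796844 to 102797153 (score 11.6, 62.1% lower) and HoxD a peak at 74493481 to 74494317 (score 11.0, 53.7% lower), the latter 3.48 kb inside the window on the side of Hoxd13. Peaks of HoxA, HoxC and HoxD each stood alone: none of the 4 overlapped a feature of any other list, like the HoxB peak at 96164414. The other 2 of the 7 OE-high peaks, both in HoxB, overlapped features of other lists. Of all OE-high peaks, 32.7% overlapped no feature of another list.

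Fbxl19 in the OE-low clone gave 2 peaks, the HoxB peak above and a peak of 164 bp in HoxC at 102844058 to 102844221 (score 7.57, 39.4% of the list lower). The HoxC peak had no OE-high counterpart, and the single OE-high peak of that cluster lay on the other side of the window's middle. Of the OE-low peaks, 1 of 2 therefore overlapped an OE-high peak (exact Clopper-Pearson 95% interval 1.26% to 98.7%), against 80.4% of the whole list, and 1 of 2 overlapped Rnf20, against 34.0%. Conversely 1 of 7 OE-high peaks overlapped an OE-low peak, against 12.9% of the list. With 2 peaks these shares cannot be set apart from the whole lists. HoxA and HoxD had no OE-low peak. Bins of window length held an OE-low peak in 11.3% of cases for HoxB and 8.40% for HoxC.

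Rnf20 peaks numbered 3 in HoxB and 1 in HoxA, with none in HoxC or HoxD. Bins of the same length held at least 3 Rnf20 peaks in 5.70% of cases (HoxB) and at least 1 in 24.1% (HoxA). In HoxB, 2 of the 3 lay on the OE-high Fbxl19 peaks described, and the third, at 96133058 to 96133318 (score 55.0, 21.6% of the list lower), overlapped no other feature. The HoxA peak at 52210149 to 52210400 (score 53.6, 15.5% lower) was not at either Fbxl19 peak of that cluster. Over all windows, 2 of 7 OE-high Fbxl19 peaks overlapped Rnf20 (28.6%, interval 3.67 to 71.0), near the 22.4% of the whole list and the 26.5% of the flanks. Conversely 2 of 4 Rnf20 peaks overlapped an OE-high Fbxl19 peak, against 38.4% of the Rnf20 list, and 1 of 4 an OE-low peak, against 8.81%. A peak list from streptavidin beads in cells without a tagged protein was not used here, so the background of the pulldown in these windows is not known.

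**Figure D4:**
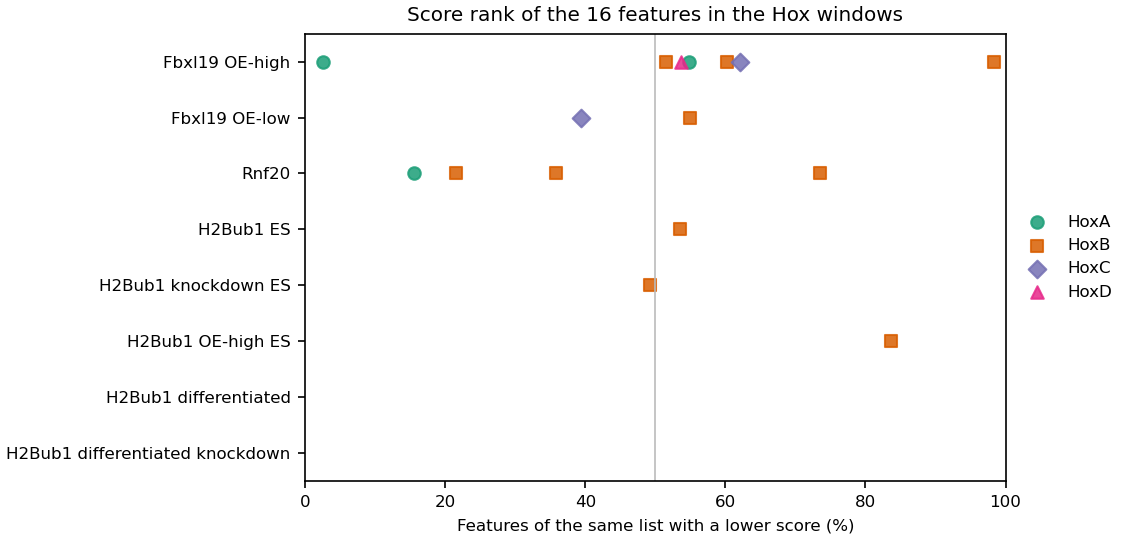
Score rank of the 16 features in the Hox windows, as the percent of features of the same list with a lower score (x axis), with the 8 lists as rows and the cluster as symbol. Among the OE-high Fbxl19 peaks shown, a HoxB peak at 98.4% ranks highest and a HoxA peak at 2.59% lowest, and both differentiated lists have no point.

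H2Bub1 was listed at a single place in the 4 clusters, a HoxB domain on the Hoxb13 side of the middle of the window. In ES cells it ran from 96112000 to 96126599 on chromosome 11 (14600 bp), in knockdown ES cells from 96112800 to 96126599 (13800 bp) and in OE-high ES cells from 96112800 to 96126399 (13600 bp). All 3 lists share 13600 bp of it. It ranked 1365 of 2937 in ES cells, 921 of 1813 in the knockdown and 1179 of 7216 in OE-high by the authors' score, which ranks domains within a list only. Neither differentiated list had a domain anywhere in the 4 windows.

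The HoxB domain was thus listed in ES cells, in knockdown ES cells and in the OE-high clone, and missing from both lists of differentiated cells. With an unexplained suffix M, the track lines carry 60 for ES and 46 for both knockdown ES and OE-high. They carry 36 for the differentiated list and 41 for the differentiated knockdown list, lower than the others. Whether this bears on the missing domain was not tested. The comparisons with knockdown, OE-high and differentiated cells share the ES list. Over that list, 52.2% of ES domains overlapped a knockdown domain, 89.5% an OE-high domain, 74.9% a differentiated domain and 28.0% a domain of the differentiated knockdown. A domain of each ES list and of neither differentiated list, as in HoxB, was found for 143 of the 2937 ES domains (4.87%). With each H2Bub1 list limited to its 1090 top-scoring domains, the HoxB domain was left in the knockdown list alone, and with the upper 50% of each list it was left in those of ES and OE-high cells but not of the knockdown. Its presence in all 3 therefore depends on the full lists.

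The HoxB domain was of similar length at each Fbxl19 level. The OE-high domain measured 0.932 times the ES domain, whereas the median over the 2628 ES domains with an OE-high counterpart was 2.22, taking the summed length of the overlapping domains. A lower ratio was found for 11.1% of those. In the knockdown the ratio was 0.945 against a median of 1.03 over 1532 domains. These ratios compare pooled lists and carry no replicate error.

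Fbxl19 and Rnf20 stood together at the low-coordinate end of the HoxB domain. In ES cells the domain began 173 bp before the start of the OE-high Fbxl19 peak and 119 bp before that of the Rnf20 peak, so both lay inside it. In the knockdown and OE-high lists it began 800 bp later, which left the Fbxl19 peak 168 bp and the Rnf20 peak 192 bp outside. Domain ends lie on a grid of 200 bp, so these gaps are smaller than 1 step of the grid. Of the ES domains, 30.3% held both an OE-high Fbxl19 and an Rnf20 peak. The third HoxB Rnf20 peak lay 6.46 kb after the end of the ES domain, and the highest-scoring Fbxl19 peak of the window lay 60050 bp before its start.

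Fbxl19 peaks of the clusters were mostly outside H2Bub1 domains. In the list of the same OE-high clone, 0 of 7 OE-high peaks overlapped a domain (interval 0 to 41.0%), against 53.9% of the whole list and 25 of 49 (51%) in the flanks. By distance instead of overlap, 1 of the 7, that of the HoxB domain, lay within 1 kb. No share within 1 kb was taken over the whole list or the flanks, so this count has no background beside it. In the ES list 1 of 7 lay in a domain (14.3%, interval 0.361 to 57.9), against 21.2% of the whole list. Counts were also 0 of 7 in the knockdown list (14.5% of the whole OE-high list), the differentiated list (37.4%) and the differentiated knockdown list (7.21%), the Fbxl19 peaks themselves having been mapped in undifferentiated cells. For Rnf20, 1 of 4 peaks lay in an ES domain, against 25.9% of the list, and 0 of 4 in an OE-high domain, against 45.2% and 20 of 25 (80%) in the flanks.

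**Figure D5:**
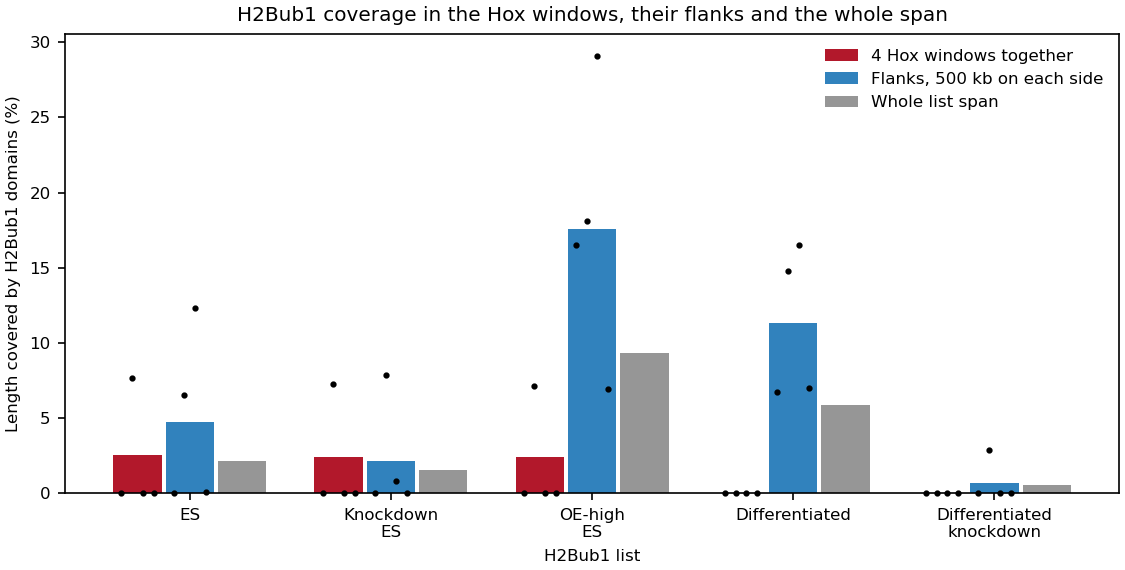
Length covered by H2Bub1 domains in percent (y axis) for each H2Bub1 list, in the 4 Hox windows together, in their flanks and over the whole span (bars), with each cluster as a dot in the order HoxA to HoxD. Coverage of the 4 windows together was 2.56% in ES cells, all of it from HoxB (dot at 7.68%), and that of the flanks together was 17.6% in OE-high and 11.3% in differentiated cells.

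HoxA, HoxC and HoxD had no H2Bub1 domain in any of the 5 lists although each held an OE-high Fbxl19 peak. The only such peak of HoxD lay 3.48 kb inside its window. Among bins of window length with an OE-high Fbxl19 peak, 21.8% (HoxA and HoxC) and 22.9% (HoxD) were without a domain in every list. A bare Fbxl19-bearing interval is therefore not rare. HoxB, with a domain in OE-high, is like 78.3% of such bins, the share being 75.5% at the HoxA and HoxC length and 74.5% at the HoxD length. At the HoxB length 19.3% were without a domain in every list. A differentiated domain was present in 61.1% (HoxA and HoxC), 64.7% (HoxB) and 59.8% (HoxD) of bins with an OE-high peak, and in none of the 4 clusters.

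Listed coverage of the windows was similar in the 3 undifferentiated lists, while that of the flanks was not. In ES cells domains covered 2.56% of the windows, 4.75% of the flanks and 2.18% of the whole span. In the knockdown these were 2.42%, 2.17% and 1.59%. In OE-high they were 2.39%, 17.6% and 9.32%, and in differentiated cells 0, 11.3% and 5.90%. The differentiated knockdown list, the shortest, had 0, 0.725% and 0.592%. The window values rest on the HoxB domain alone and are 0 in all 5 lists without HoxB. Taken by itself, the HoxB window was covered to 7.68% in ES cells (flanks 6.56%, chromosome 11 5.94%), 7.26% in the knockdown (7.90% and 6.01%) and 7.16% in OE-high (18.1% and 13.7%). In the differentiated list it was 0, with 14.8% of its flanks and 10.8% of chromosome 11 covered. Flank length covered was 190 kb in ES cells, 706 kb in OE-high and 451 kb in differentiated cells.

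OE-high domains lay within 500 kb on both sides of all 4 windows, and differentiated domains on both sides of HoxB, HoxC and HoxD but only after HoxA. Over the whole span there were 2.74 OE-high and 1.94 differentiated domains per Mb, and 26.2% and 19.6% of 100 kb bins held a domain. The share of all 500 kb stretches with a domain was not computed, so whether a domain at this distance is particular to the clusters cannot be told. HoxA, whose flanks had no domain in the ES or knockdown list, had an OE-high domain 35.0 kb before the window (52052800 to 52064999) and a differentiated domain 26.2 kb after it (52256200 to 52268599), neither listed in the other condition. The nearest OE-high domain after HoxA lay 264 kb away, and the nearest differentiated domain before it 574 kb away. HoxD had OE-high and differentiated domains at nearly the same places on both sides, 73.0 kb before and 53.6 kb (OE-high) or 53.8 kb (differentiated) after the window. HoxC had OE-high domains 188 kb before and 116 kb after, and differentiated domains 238 kb before and 149 kb after. HoxB had OE-high domains 113 kb before and 394 kb after, and differentiated domains 120 kb before and 410 kb after. In the differentiated knockdown list a single domain stood in all flanks, 183 kb before HoxB (95838200 to 95867199).

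The ends of the domains next to the clusters were set beside Fbxl19 summits, a comparison chosen after the positions had been seen. Of the 8 nearest OE-high H2Bub1 domains, on both sides of each Hox window, 7 had an OE-high Fbxl19 summit within 1 kb of an end, against 48.4% of all OE-high domains. At 4 of them, 2 at HoxD and those before HoxB and before HoxC, the summit lay at the end that faces the cluster. At 3, those after HoxA, HoxB and HoxC, it lay at the far end only. The domain 35.0 kb before HoxA had none. Over the whole OE-high list, 25.5% of single ends had such a summit, against 4 of 8 facing and 3 of 8 far ends here. In the differentiated list 4 of the 7 nearest domains within 500 kb had a summit at either end, against 56.9% of the list. The counts were 3 of 5 in the ES list (50.6% of the list), 3 of 3 in the knockdown list (51.4%) and 0 of 1 in the differentiated knockdown list (69.7%). These counts are small and were not tested against the lists. In the ES and knockdown lists, the domains on both sides of HoxB met the same Fbxl19 peaks. The 4 differentiated domains also met peaks counted in other lists. These were the OE-high list on both sides of HoxD, the ES and knockdown lists after HoxB, and the knockdown list before HoxC. The counts of the lists are therefore not independent. The knockdown domain before HoxB was only 1000 bp long, and domain length was not allowed for.

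HoxD shows the arrangement on both sides. Before the cluster, the OE-high domain from 74390800 to 74416999 on chromosome 2 and the differentiated domain from 74390400 to 74416999 ended inside the Fbxl19 peak at 74416622 to 74417352 (score 10.3). After it, the OE-high domain from 74663600 to 74705999 and the differentiated domain from 74663800 to 74707599 began at the Fbxl19 peak at 74663670 to 74664533 (score 12.8), which overlapped an Rnf20 peak. That both pairs of domains ran away from the cluster follows from their choice, since only domains wholly outside the window were taken. Neither pair had a counterpart in the ES, knockdown ES or differentiated knockdown list.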

How the data were processed

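The material was 8 peak or domain lists that the authors deposited on mm9. BWA 0.5.9-r16 and MACS appear in the submitters' processing notes, which give them no role. The 5 H2Bub1 lists have track lines ending in BCP, a caller of broad domains, per the file headers, and a deposited score per domain of unstated formula. Other values, the domain lengths in base pairs, fill another column deposited by the authors. The Fbxl19 lists hold 2 deposited scores per peak, of which the first was used, and the Rnf20 list a score of at least 50. The OE-high Fbxl19 list was matched to its samples by name, since their description names the H2Bub1 list of that clone. For 1 of the 3 H2Bub1 samples of that clone the label gives no list. Depth per sample is unknown. The track lines carry 36 to 60 with the suffix M, not explained there.

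Fbxl19 positions were read as counted from 1 and the others from 0, and all are given counted from 1. Overlap means at least 1 bp. Shares carry exact Clopper-Pearson and densities exact Poisson intervals at 95%, for counting error only. The span of a chromosome runs to its last listed position, 2638 Mb in all. Flanks are 500 kb on each side. Bins of window length and the CG extremes were chosen after the data were seen. Named features are every feature in the windows. The windows, genes, lists and comparisons were chosen with earlier results of these data known. Alternatives were wider and narrower windows, wholly contained features, other overlap rules, the top 50% by score, H2Bub1 lists of the same size, domains of at least 2 kb and leaving out each cluster. Overlap counting was checked by simulation, where 40% overlap planted between 2 lists of 5000 peaks was recovered as 40%. Python 3.11.15, NumPy 2.4.6, SciPy 1.17.1 and matplotlib 3.10.9 were used.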

Additional observations from a re-analysis of the deposited data

How the results depend on the processing

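Of the alternatives run, the HoxB window decided most. Without it the windows held 4 OE-high Fbxl19 peaks and 1 Rnf20 peak, 0% of OE-high peaks overlapped Rnf20, 0% of OE-low peaks overlapped OE-high, and coverage by H2Bub1 was 0 for all of the ES, knockdown ES and OE-high ES lists. With the top 50% of each list by score, 1 Rnf20 peak was left, 100% (1 of 1) of OE-low peaks overlapped OE-high, and coverage in the knockdown ES list was 0. With H2Bub1 lists of the same size, coverage was 0 in the ES and OE-high ES lists. Without HoxC, 100% (1 of 1) of OE-low peaks overlapped OE-high, and with windows narrowed by 5 kb, an alternative chosen after seeing the data, 0% did. The narrowed windows held 5 OE-high Fbxl19 peaks, with HoxD left without any, and 3 Rnf20 peaks. Of those OE-high peaks, 20% (1 of 5) overlapped Rnf20. The share of OE-high Fbxl19 peaks in an OE-high domain, 0 as reported, could rise only with wider windows, where it was 0, or within 1 kb, where it was 14.3%. No whole-list share was taken at that distance. Coverage in both differentiated lists could rise only with wider windows, where it was 0. No paired analysis was possible because the lists combine the replicates of each group, and for the same reason no replicate could be left out. The small counts, 7 peaks at most per list, limit every share.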
